A study of Mus musculus with 4 samples.

Results

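The antioxidant and glutathione genes examined here are 36 genes of the 32285 listed in each count matrix, matched by their symbols and followed across ovarian cell classes and treatments. They cover the oxidant-sensing pair Nfe2l2 and Keap1, the glutathione synthesis and recycling genes, superoxide dismutases, catalase, glutathione peroxidases, peroxiredoxins, thioredoxins, glutathione S-transferases and 2 metallothioneins. They were chosen by function, with earlier results of these data known. The mice were prepubertal, of postnatal day 25. The control group received PBS/saline. The doxorubicin group received doxorubicin, an anthracycline that damages DNA and generates oxidants, at 3 mg/kg in 2 weekly doses. The doxorubicin+AMH group received the same doxorubicin with recombinant human AMH (anti-Müllerian hormone, made by granulosa cells) at 0.75 mg/kg, and the AMH group received AMH alone at 0.75 mg/kg. Ovaries were collected 4 hours after the last dose. For each group 1 ovary from each of 5 mice was pooled, dissociated enzymatically and mechanically, and made into 1 droplet library of transcript ends. With 1 library per group there is no replicate check, no test between groups was possible, and every difference below is between libraries, not shown to be between treatments.

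As background, NRF2 (the product of Nfe2l2) is a transcription factor that KEAP1 holds for degradation until oxidants or electrophiles modify KEAP1. NRF2 then binds antioxidant response elements and raises genes that import cystine (Slc7a11), build glutathione (Gclc, Gclm), reduce thioredoxin (Txnrd1), repair peroxiredoxins (Srxn1) and break down heme (Hmox1). Metallothioneins bind zinc and copper and scavenge oxidants, and their genes answer to metal through metal response elements and to glucocorticoids. In the ovary, theca and luteal cells make steroids with mitochondrial and microsomal cytochrome P450 enzymes, which leak oxidants.

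The promoters of 4 genes are shown as examples whose windows hold the response elements named above: both metallothioneins, and Srxn1 and Gclm, a pair of NRF2 targets. They were picked because they hold a match, not for the size of their differences. Sequences are from RefSeq's table for GRCm38.p6, run 5′ to 3′ on the gene's strand, and cover 250 bases before and 50 bases after the annotated start. Capitals mark the metal response core TGCNCNC on either strand in the metallothionein genes, and the antioxidant response core TGACNNNGC on either strand in the other pair.
Mt1 (chr8:94178839-94179138, plus strand): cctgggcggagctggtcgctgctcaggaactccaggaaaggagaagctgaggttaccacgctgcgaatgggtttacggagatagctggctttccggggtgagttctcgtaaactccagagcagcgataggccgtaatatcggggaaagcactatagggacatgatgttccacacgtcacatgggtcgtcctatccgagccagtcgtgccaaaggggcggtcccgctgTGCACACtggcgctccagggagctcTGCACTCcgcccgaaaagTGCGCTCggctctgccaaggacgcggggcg
Mt2 (chr8:94172368-94172667, plus strand): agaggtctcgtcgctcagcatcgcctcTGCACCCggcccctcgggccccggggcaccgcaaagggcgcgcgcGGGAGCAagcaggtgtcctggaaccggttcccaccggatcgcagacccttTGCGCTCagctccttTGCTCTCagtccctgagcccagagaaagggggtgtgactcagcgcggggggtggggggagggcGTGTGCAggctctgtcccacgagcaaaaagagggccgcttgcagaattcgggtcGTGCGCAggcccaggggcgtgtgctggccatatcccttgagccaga
Srxn1 (chr2:152105274-152105573, plus strand): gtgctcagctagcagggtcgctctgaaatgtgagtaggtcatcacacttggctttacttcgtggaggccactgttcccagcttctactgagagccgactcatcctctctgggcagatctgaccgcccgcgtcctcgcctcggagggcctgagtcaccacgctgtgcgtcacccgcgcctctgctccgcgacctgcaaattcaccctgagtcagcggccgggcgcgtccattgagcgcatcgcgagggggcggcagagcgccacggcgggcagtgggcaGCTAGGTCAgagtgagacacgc
Gclm (chr3:122245307-122245606, plus strand): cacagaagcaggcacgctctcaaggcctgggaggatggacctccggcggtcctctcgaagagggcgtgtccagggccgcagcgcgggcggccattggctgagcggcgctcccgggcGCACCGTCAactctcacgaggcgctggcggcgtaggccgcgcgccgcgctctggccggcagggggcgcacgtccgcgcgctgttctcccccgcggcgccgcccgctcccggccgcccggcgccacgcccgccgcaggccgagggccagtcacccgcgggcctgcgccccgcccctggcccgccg
The Mt2 window held 6 metal response cores, a number reached by 0.225% of the 32851 promoters in the table, and the Mt1 window held 3, reached by 7.10%. At least 1 such core occurred in 51.0% of all promoters and in 18 of the 37 promoters that the table holds for 30 of the members. The antioxidant response core occurred in 12.4% of all promoters and in 8 of those 37, 1 each of Nfe2l2, Gclm, Sod1, Prdx1, Srxn1, Txnrd1, Mgst1 and Mt2. The windows of Slc7a11 and Txn1 held 0 cores of either kind. In Gclm the capitals overlap a metal response core. A match describes letters in the window and not binding.

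The 4 libraries held 7141 to 9478 deposited cells and 138647495 to 178279122 unique molecular identifiers (UMIs, each counting 1 captured transcript), and 6040 to 7956 cells per library were kept after filtering. Pairs of libraries shared 11 to 24 cell barcodes, at most 0.281% of the smaller library. Joint clustering gave 33 clusters, and 6 classes had at least 50 cells in every library: granulosa-like, theca-like, stroma-like, mural smooth muscle-like, blood endothelial-like and macrophage-like cells, named from fixed markers. The order of libraries used below is control, doxorubicin, doxorubicin+AMH, AMH. In that order there were 2146, 2158, 2315 and 3019 granulosa-like cells, 837, 591, 739 and 902 theca-like cells, 3092, 2246, 2226 and 2260 stroma-like cells, 1022, 613, 831 and 948 mural cells, 168, 118, 60 and 93 blood endothelial-like cells, and 189, 90, 91 and 181 macrophage-like cells. In the doxorubicin library 249 of the cells called granulosa-like formed 2 clusters that the other libraries barely held. In the larger one, of 171 cells, the smooth muscle genes Myh11, Actg2 and Acta2 stood among the 10 leading genes beside the granulosa markers Inhba and Nr5a2. The granulosa-like counts past the fold were the same without these clusters. Levels are CPM, UMIs of a gene per 1000000 UMIs of a class in a library, and they are not scaled for transcript length, so they are compared within a gene. Intervals are 95% and cover counting error only. A difference is called past the fold when its log2 ratio, taken with 5 CPM added to each level, is at least 0.5 or at most -0.5 (1.41-fold), where the gene's mean over the libraries of that class reaches 20 CPM. By that filter 22 of the 36 genes were measured in all 6 classes, and Nqo1 and Gss in none.

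Macrophage-like and theca-like cells held the highest mean levels of most of these genes. Of the 36 genes, 14 had their highest mean level in macrophage-like cells, 12 in theca-like cells, 5 in granulosa-like cells, 2 in mural cells, 2 in stroma-like cells and 1 in blood endothelial-like cells. For 10 of the 14 and 7 of the 12, every library of the highest class lay above every library of the next class. That was so for 1 gene each in granulosa-like, mural and stroma-like cells, and for the 1 gene of blood endothelial-like cells, Gclm, the ranges overlapped. These orders describe 4 libraries and carry no test, and RNA of other classes in a droplet may add to them.

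**Figure D1:**
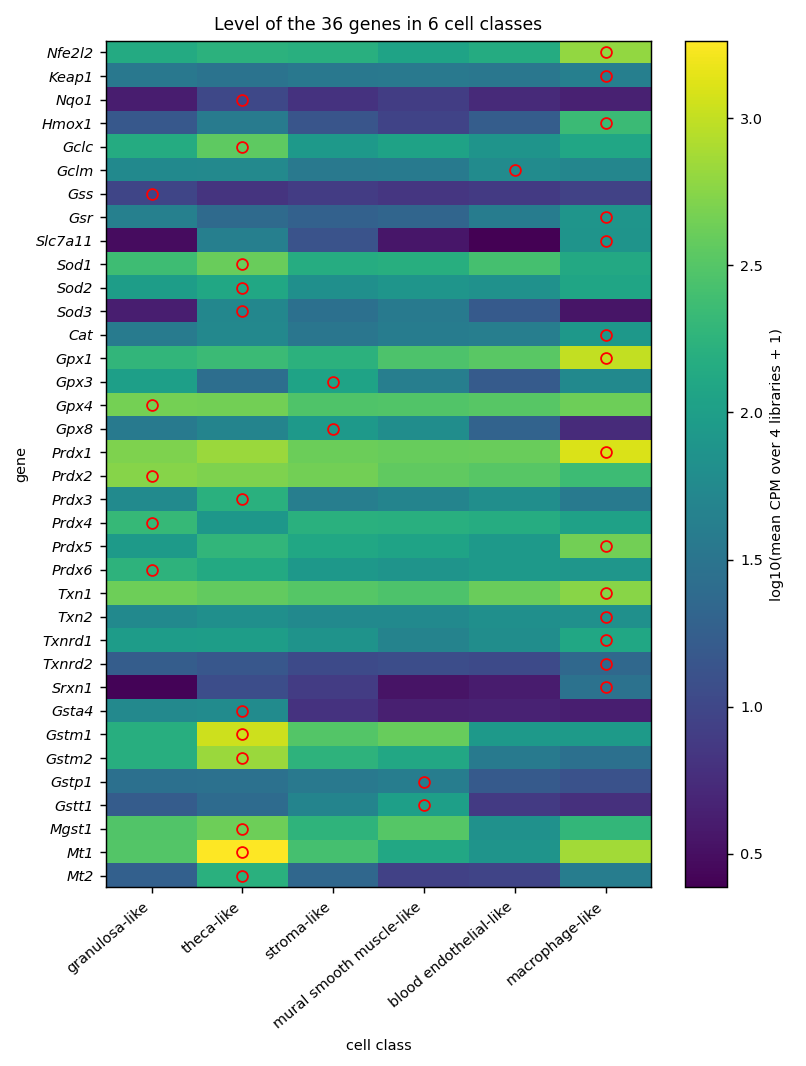
Mean level of each of the 36 genes (rows) in each of the 6 cell classes (columns) over the 4 libraries, drawn as the log10 of mean CPM + 1, with a red circle at the highest class of each gene. The circles lie mostly in the macrophage-like column (14 genes) and the theca-like column (12 genes).

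Among the sensors and heme defence, Nfe2l2 stood at 621 CPM (range 548 to 679) against 172 CPM in theca-like cells. Keap1, its repressor, had no such gap, with 41.5 CPM (range 28.9 to 54.0) against 34.8 CPM in mural smooth muscle-like cells, and the ranges overlapped. Hmox1, which breaks down heme, reached 220.3 CPM (range 192 to 258) against 37.7 CPM in theca-like cells. The pair therefore differed in pattern: the transcription factor was concentrated in macrophage-like cells and its repressor was near even. Srxn1, the sulfiredoxin that reactivates overoxidised peroxiredoxins, averaged 28.5 CPM (range 16.1 to 39.2) against 10.7 CPM in theca-like cells. For glutathione synthesis, Gclc, the catalytic subunit of the rate-limiting ligase, was highest in theca-like cells at 356 CPM (range 340.1 to 378) against 142 CPM in granulosa-like cells. Its modifier subunit Gclm was near even, from 34.1 CPM in stroma-like cells to 58.3 CPM in blood endothelial-like cells. Gsr, which regenerates reduced glutathione, was highest in macrophage-like cells at 75.5 CPM (range 51.2 to 113) against 42.4 CPM in granulosa-like cells.

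Peroxide-removing enzymes had their highest means in several classes. In macrophage-like cells Gpx1, the cytosolic glutathione peroxidase, stood at 993 CPM (range 867 to 1113) against 338 CPM in blood endothelial-like cells, and Prdx1 at 1262 CPM (range 1039.8 to 1561) against 668 CPM in theca-like cells. Prdx5 was also highest in macrophage-like cells, at 443 CPM (range 400.3 to 563) against 190.0 CPM in theca-like cells, as was catalase (Cat) at 81.9 CPM (range 71.0 to 91.9) against 52.3 CPM in theca-like cells. The mitochondrial peroxiredoxin Prdx3 was instead highest in theca-like cells, at 160.4 CPM (range 97.9 to 223) against 63.2 CPM in blood endothelial-like cells, with Sod1, the cytosolic superoxide dismutase, at 401 CPM (range 298 to 503) against 256 CPM in blood endothelial-like cells. Prdx4, the peroxiredoxin of the endoplasmic reticulum, was the 1 gene whose granulosa-like libraries all lay above the next class, at 207 CPM (range 184 to 248) against 162 CPM in stroma-like cells. Gpx8, another enzyme of that compartment, was highest in stroma-like cells at 83.4 CPM (range 80.0 to 85.4) against 61.5 CPM in mural smooth muscle-like cells. Gpx4 (highest mean in granulosa-like cells, 462 CPM) shared 64.7% of the 50-base stretches near its transcript ends with 2 other genes, so its counts are uncertain.

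The metallothioneins and the mu-class transferases were highest in theca-like cells, and the other conjugating enzymes were not set apart there. Gstm1, a mu-class glutathione S-transferase, averaged 1111 CPM (range 637 to 1644) against 397 CPM in mural smooth muscle-like cells, and its neighbour Gstm2 averaged 684 CPM (range 435 to 959.7) against 175 CPM in stroma-like cells. Gstt1, of the theta class, was highest in mural cells at 101 CPM (range 91.1 to 112) against 47.5 CPM in stroma-like cells. Gstp1 also had its highest mean in mural cells, at 39.1 CPM (range 31.0 to 53.2) against 34.4 CPM in stroma-like cells, with overlapping ranges. Mgst1 at 422 CPM (range 261 to 599.8) against 322 CPM in mural smooth muscle-like cells and Gsta4 at 58.3 CPM (range 29.8 to 95.5) against 53.9 CPM in granulosa-like cells had their highest means in theca-like cells, again with overlapping ranges. Mt1 stood at 1833 CPM (range 1378 to 2192) against 732 CPM in macrophage-like cells and Mt2 at 160.4 CPM (range 135 to 187) against 39.3 CPM in macrophage-like cells. The lowest Mt1 mean, 73.7 CPM, was that of blood endothelial-like cells.

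The first question was what doxorubicin did to these genes, read as doxorubicin against control and as doxorubicin+AMH against AMH, which share no library. In granulosa-like cells almost nothing in the group differed. Of 27 genes measured, 0 were past the fold against control (background over all measured genes 0.166% higher and 0.196% lower), with a median log2 ratio of 0.07 against -0.02 for all genes. With AMH given, 1 gene was lower (background 0.377% higher and 0.739% lower), with a median of 0.11. That gene was Gpx3, the secreted glutathione peroxidase, at 115 CPM in control, 82.4 with doxorubicin, 77.4 with both agents and 131 with AMH alone. It was lower in both libraries given doxorubicin, 0.719 (interval 0.694 to 0.745) of control and 0.589 (interval 0.569 to 0.609) of AMH, with log2 ratios of -0.45 and -0.73. Weighting each cell equally, or leaving doublets in, moved the count of 1 to 0. Nfe2l2 stood at 137, 149, 129 and 141 CPM and Keap1 at 33.5, 34.9, 35.3 and 31.1 CPM in granulosa-like cells. Gclm at 55.7, 55.9, 58.1 and 51.8 CPM and Txnrd1, the cytosolic thioredoxin reductase, at 96.8, 100.2, 85.7 and 87.4 CPM were as close between libraries. Of the most counted members, Prdx2 read 477, 530.4, 609 and 559, Prdx1 477, 536, 516 and 479 and Gpx4 401, 471, 532 and 445 CPM. Mt1 stood at 296, 355, 316 and 269 CPM there, with the doxorubicin library highest and AMH lowest.

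In theca-like cells the doxorubicin ratios were small. Against control 1 of 32 measured genes was higher and 0 lower (background 0.383% and 0.463%), although 27 of the 32 ratios lay above 0 and their median was 0.12, against -0.01 for all genes. The 1 gene was Hmox1, heme oxygenase, at 29.8 CPM in control, 48.3 with doxorubicin, 31.4 with both agents and 41.1 with AMH alone, 1.62-fold (interval 1.47 to 1.78) higher in doxorubicin than in control. Its log2 ratio of 0.61 ranged from 0.18 to 0.82 over the alternatives, so the call was not kept in all of them. With AMH given Hmox1 went the other way, at a log2 ratio of -0.34. In that comparison 0 genes were higher and 1 lower (background 0.654% and 0.526%, median -0.02), which was Gstp1. Keap1 at 31.8, 31.7, 26.2 and 28.9 CPM and Txnrd1 at 91.1, 103, 102 and 92.6 CPM were near even across the libraries, and Nfe2l2 at 155, 149, 201 and 185 CPM was higher in both libraries given AMH. With the mix of theca-like clusters held fixed, however, Keap1 was lower past the fold in doxorubicin+AMH against doxorubicin. Mt2 stood at 135, 158, 161 and 187 CPM. Among mural cells 0 of 27 genes were past the fold in either doxorubicin comparison (background 0.394% higher and 1.74% lower against control, 0.637% and 1.5% with AMH), with medians of 0.05 and 0.01.

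Gclc stood higher in the doxorubicin library than in control in all 6 classes, past the fold in stroma-like and macrophage-like cells. The log2 ratios were 0.31 in granulosa-like, 0.06 in theca-like, 0.58 in stroma-like, 0.16 in mural, 0.59 in macrophage-like and 0.47 in blood endothelial-like cells. With AMH given the direction was not shared: doxorubicin+AMH against AMH gave -0.21, -0.02, -0.28, -0.27, -0.60 and 0.00 in the same order. Across 21 clusters with at least 20 cells in each library, the first ratio lay above 0 in 19 and the second below 0 in 17. The first was past the fold in 6 of them upward and in 2 downward. Such a tally was not particular to Gclc: in doxorubicin against control Gpx1 and Prdx1 also lay above 0 in 19 of 21 clusters, and Gpx4, Prdx2 and Prdx5 in 18. Clusters of 1 library share its cells, handling and depth and are not replicates. The AMH library itself held Gclc above control in 18 of the 21 clusters. Gclc stood at 129.9 CPM in control, 162 with doxorubicin, 129 with both agents and 149 with AMH alone in granulosa-like cells, where doxorubicin was highest and control and doxorubicin+AMH were equal within counting error. In theca-like cells, the class with the most Gclc, it was near even at 363, 378, 340.1 and 344 CPM.

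**Figure D2:**
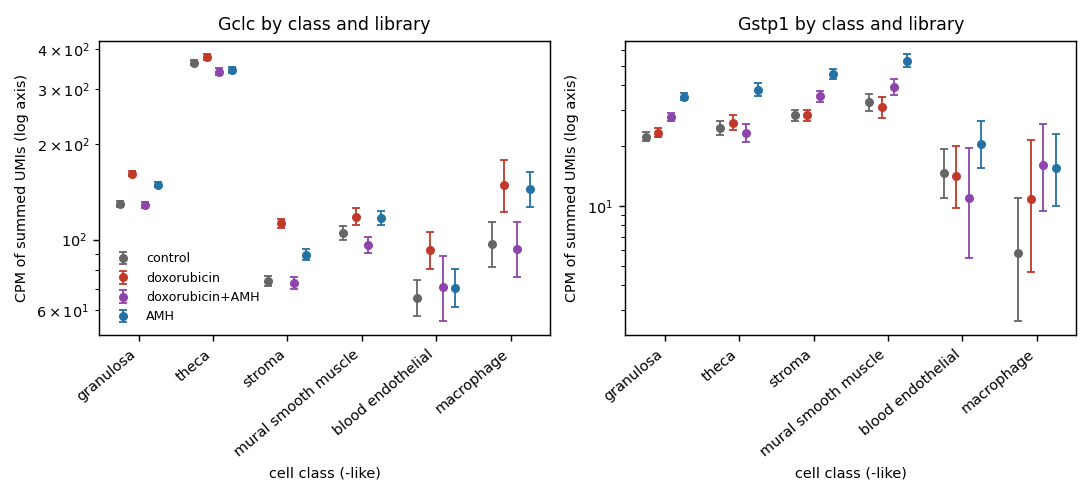
Levels of Gclc and Gstp1 in CPM (log axis) in each class, 1 point per library, with 95% Poisson bars that cover counting error only. In stroma-like cells the doxorubicin library is highest for Gclc (113 CPM against 73.1 to 89.7), and the AMH library is highest for Gstp1 in granulosa-like, theca-like, stroma-like and mural cells (35.2 to 53.2 CPM).

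In stroma-like cells Gclc was the 1 of 28 measured genes past the fold in doxorubicin against control (0 lower, background 0.39% higher and 0.165% lower), at 74.0 CPM in control, 113 with doxorubicin, 73.1 with both agents and 89.7 with AMH alone. It was 1.52-fold (interval 1.45 to 1.60) higher than control, while doxorubicin+AMH against AMH had 0 genes past the fold (background 0.27% and 0.585%). The medians were 0.04 and 0.03. Other genes of the NRF2 group were near even in stroma-like cells: Nfe2l2 at 161, 171, 158 and 145, Keap1 at 33.4, 34.6, 33.2 and 31.2 and Gclm at 33.2, 33.9, 34.7 and 34.6 CPM. Txnrd1 read 73.7, 83.0, 71.2 and 63.1 CPM, highest in doxorubicin by less than the fold used. The most counted members there, Prdx2 at 425, 434, 486 and 453, Prdx1 at 389.8, 447, 404 and 402 and Txn1 at 294, 348, 327 and 308 CPM, also stayed within it. When 1 cluster led by Dpt, Clec3b and C3 was left out, the Gclc ratio fell below the fold but stayed above 0, at 0.38, the lowest of its alternatives, and the count became 0. The count was also 0 when each cell was weighted equally.

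That cluster had 303, 204, 136 and 267 cells and was chosen for description after its values were seen. In all, 3 of its 29 measured genes were higher and 3 lower in doxorubicin than in control (10.3% each), beside 7% and 11.2% of all genes measured in it, so the shares were near the background. The 3 higher were Srxn1, Gclc and Txn1. Srxn1 stood at 17.8 CPM (interval 13.8 to 22.7) in control, 68.7 CPM (interval 60.0 to 78.3) with doxorubicin, 10.4 CPM (interval 5.96 to 16.9) with both agents and 11.9 CPM (interval 8.33 to 16.5) with AMH alone. The doxorubicin library was alone at the high end, 3.85-fold (interval 2.91 to 5.15) above control, and was the 1 library above 20 CPM, so the gene passed the level filter only through the library where it was high. Gclc was likewise highest with doxorubicin, at 133 CPM (interval 122 to 145), 323 CPM (interval 303 to 343), 131 CPM (interval 114 to 150.5) and 124 CPM (interval 112 to 137), 2.43-fold (interval 2.18 to 2.71) above control. Txn1, thioredoxin itself, stood at 302, 523, 295 and 280.4 CPM, 1.73-fold (interval 1.60 to 1.87) above control. Hmox1 was below the level filter at 9.74, 32.8, 6.52 and 10.6 CPM, and its unfiltered ratio to control was 3.37 (interval 2.29 to 5.06). Other NRF2-related members measured there were within the fold: Nfe2l2 read 153, 213, 156 and 124, Keap1 31.1, 26.9, 38.5 and 28.7, Gclm 27.0, 23.2, 25.4 and 25.4, Txnrd1 69.2, 88.5, 63.9 and 47.9 and Prdx1 336, 457, 327 and 365 CPM, with log2 ratios to control of 0.47, -0.18, -0.18, 0.33 and 0.44. Doxorubicin+AMH did not differ from AMH past the fold: against AMH the log2 ratios were -0.13 for Srxn1, 0.08 for Gclc and 0.07 for Txn1.

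Metallothioneins went the other way in that cluster. Mt1 stood at 346 CPM in control, 186 with doxorubicin, 344 with both agents and 308 with AMH alone and Mt2 at 42.7, 12.4, 28.7 and 20.1 CPM, both lowest in doxorubicin, with log2 ratios to control of -0.88 and -1.46. Sod3, the secreted superoxide dismutase, read 50.3, 31.3, 31.3 and 34.3 CPM, highest in control. Against AMH, doxorubicin+AMH had 0 of 29 past the fold (background 5.63% and 4.34%).

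**Figure D3:**
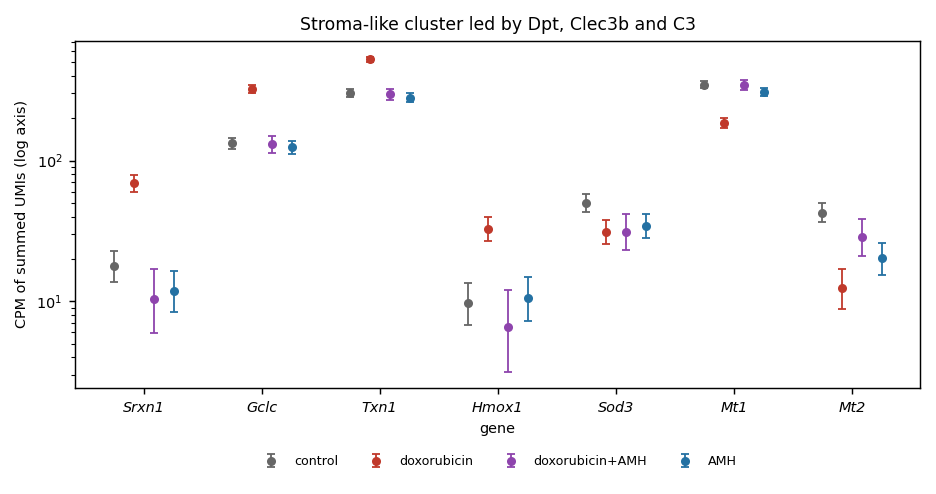
Levels of 7 genes in CPM (log axis) in the stroma-like cluster led by Dpt, Clec3b and C3, 1 point per library with 95% Poisson bars for counting error only. Srxn1 (68.7 CPM), Gclc (323 CPM), Txn1 (523 CPM) and Hmox1 (32.8 CPM) are highest in the doxorubicin library, where Mt1 (186 CPM) and Mt2 (12.4 CPM) are lowest.

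The difference was spread over cells. Srxn1 had a UMI in 45 of 303 control cells (14.9%), 76 of 204 doxorubicin cells (37.3%), 13 of 136 doxorubicin+AMH cells (9.56%) and 28 of 267 AMH cells (10.5%). After each cell was thinned to 2000 UMIs, leaving out 1 or 2 shallower cells per library, the shares were 3.23%, 10.3%, 1.71% and 2.23%. Erythroid-like cells, taken as a measure of free RNA, had an Srxn1 UMI in 0 of 60, 0 of 59, 2 of 75 and 0 of 41 cells, at medians of 3928 to 6553 UMIs per cell against 10719 to 15195 in the cluster. Gclc had a UMI in 51.5%, 76.5%, 44.1% and 46.4% of the cluster's cells, and in 18.7%, 35.3%, 16.3% and 17.0% after thinning. In erythroid-like cells the Gclc shares were 4.88% to 9.33% unthinned. After thinning, which left out 5 to 15 of those cells per library, they were 1.37% to 2.82%. Slc7a11 is not read as part of this pattern, since 112 of its 131 doxorubicin UMIs came from 1 cell. Immediate early genes of tissue dissociation also differed: of 15 measured on that list, 1 was higher and 6 lower in doxorubicin than in control, beside 7% and 11.2% of all genes, and their part in the result was not tested. Neutrophil markers summed to 1.89, 0.309, 1.30 and 0.330 CPM and macrophage markers to 20.3, 14.2, 17.0 and 25.8 CPM in the cluster. Mural markers summed to 693, 459, 1071 and 819.7 CPM and blood endothelial markers to 78.7, 34.7, 71.7 and 61.8 CPM, both lowest in doxorubicin, and stroma markers to 29965, 26128, 19964 and 25174 CPM. Theca markers summed to 297, 185, 169 and 220.3 CPM and luteal markers, a list that shares Cyp11a1, to 212, 175, 151 and 142 CPM. Both were highest in control, as Sod3, Mt1 and Mt2 were. The part of these markers in the result was not tested.

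Macrophage-like cells had, of the 6 classes, the largest share of these genes past the fold in doxorubicin against control. Of 29 measured genes, 8 were higher (27.6%) and 3 lower (10.3%), beside 7.28% and 8.18% of all measured genes, with a median of 0.23 against 0.01 for all genes. Slc7a11, the cystine importer, stood at 21.2 CPM in control, 179.6 with doxorubicin, 65.3 with both agents and 29.6 with AMH alone, 8.47-fold (interval 5.75 to 12.8) above control, and was the 1 gene past the fold in both doxorubicin comparisons (log2 2.82 and 1.02). Its UMIs came from 10, 12, 7 and 14 cells, and 5, 10, 7 and 7 of those cells also had a UMI of a neutrophil marker. Cells with a UMI of any of the 5 neutrophil markers held 13 of 33 Slc7a11 UMIs in control, 128 of 133 with doxorubicin, 69 of 69 with both agents and 38 of 48 with AMH alone. The neutrophil markers summed to 227, 782, 550.1 and 358 CPM in the class, with S100a8 at 67.4, 271, 231 and 119 CPM and S100a9 at 70.0, 354, 243 and 149 CPM. Without the cells that have a neutrophil marker UMI the Slc7a11 ratios turned, to -0.69 and -1.80. They rest on the few UMIs left, and Slc7a11 was then below the level filter. In doxorubicin+AMH all 69 UMIs lay in the cells taken out. How neutrophil marker UMIs came to be in these cells was not tested, so values without these cells describe a subset of the class and not a purified cell type. Unthinned, Slc7a11 had a UMI in 5.29%, 13.3%, 7.69% and 7.73% of macrophage-like cells (median 6073 to 8156 UMIs). The unthinned counts in erythroid-like cells were 0 of 60, 0 of 59, 1 of 75 and 0 of 41. Thinning left out the shallower macrophage-like cells, 46 of 189, 27 of 90, 23 of 91 and 38 of 181. Of the cells kept, 2.66%, 13.4%, 9.04% and 3.81% had an Slc7a11 UMI by thinned counts, so these are not shares of the whole class.

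**Figure D4:**
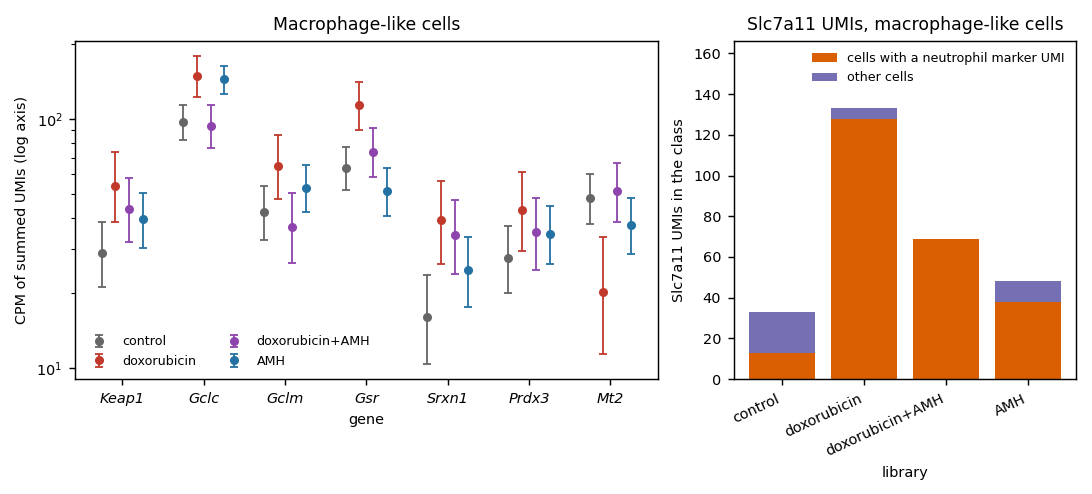
Left, levels of 7 genes in CPM (log axis) in macrophage-like cells, 1 point per library with 95% Poisson bars for counting error only. Right, stacked bars of Slc7a11 UMIs per library, split into cells with and without a UMI of any of 5 neutrophil markers; in doxorubicin 128 of 133 UMIs lie in cells with one.

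Of the genes that stayed past the fold without the cells with neutrophil RNA, 4 were higher in doxorubicin. Keap1 stood at 28.9 CPM in control, 54.0 with doxorubicin, 43.6 with both agents and 39.5 with AMH alone, a log2 ratio of 0.80 that became 0.70. Srxn1 stood at 16.1, 39.2, 34.1 and 24.7 CPM, 1.07 becoming 0.85, and its intervals are wide, with a fold of 2.44 (interval 1.38 to 4.34). Gclm at 42.4, 64.8, 36.9 and 53.0 CPM went from 0.56 to 0.64, and mitochondrial Prdx3 at 27.6, 43.2, 35.0 and 34.5 CPM from 0.56 to 0.95, with a fold of 1.56 (interval 0.958 to 2.53) that includes 1. Gclc at 97.0, 149, 93.7 and 144 CPM, Gsr at 63.6, 113, 73.9 and 51.2 CPM and Prdx1 at 1039.8, 1561, 1218 and 1231 CPM did not stay past it: 0.59 became 0.19, 0.79 became 0.16 and 0.58 became 0.18. Among the lower genes, Mt1 at 759.8, 485, 819 and 865 CPM (-0.64, then -0.54) and Gpx3 at 69.4, 39.2, 56.8 and 59.2 CPM (-0.75, then -1.29) stayed lower. Mt2 at 48.2, 20.3, 51.1 and 37.6 CPM did not, going from -1.07 to -0.18. RNA of other classes also differed within macrophage-like cells. Theca markers, of the class with the most Mt1, summed to 472, 238, 421 and 118 CPM. Luteal markers, a list that shares Cyp11a1, summed to 119, 37.8, 59.7 and 14.2 CPM and stroma markers to 330.1, 181, 137 and 411 CPM. All were lower in doxorubicin than in control. Granulosa markers, at 171, 265, 352 and 449.7 CPM, and lymphatic endothelial markers, at 45.0, 107, 10.4 and 46.9 CPM, were higher. The part of these markers in the metallothionein values was not tested. Without those cells 7 of 28 genes were higher and 3 lower, beside 13.8% and 13.6% of all genes measured in the remaining cells. Only 6 of these 10 were among the 11 of the whole class, and the 4 others were Prdx5, Gstm1 and Gstm2, higher, and Cat, lower. With AMH given, 2 genes were higher and 2 lower (background 5.63% and 10.3%). That count of 4 was not stable: it became 10 with cells weighted equally, 8 under the marker gate, and 7 both with a fixed cluster mix and without the cells with neutrophil RNA (background then 11.6% and 14.6%). In doxorubicin+AMH against AMH Keap1 gave 0.13, Srxn1 0.40 and Gclc -0.60. Gpx1, the other most counted member, stood at 893, 1100.3, 1113 and 867 CPM and was within the fold in every comparison. Nfe2l2 read 679, 643, 548 and 614 and Hmox1 192, 208, 223 and 258 CPM.

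The second question was what AMH did, read as AMH against control and as doxorubicin+AMH against doxorubicin, which share no library. Theca-like cells held most of the differences. Of 32 measured genes, 7 were higher (21.9%) and 9 lower (28.1%) in AMH than in control, beside 7.61% and 10.7% of all measured genes. In doxorubicin+AMH against doxorubicin 4 were higher (12.5%) and 11 lower (34.4%), beside 7.15% and 10.5%. The medians were 0.01 and -0.14, so the group as a whole did not lean 1 way in the first. The same 13 genes passed the fold in the same direction in both comparisons, 4 higher and 9 lower.

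All 4 that were higher import cystine or conjugate glutathione. Gstt1 stood at 5.25 CPM in control, 9.35 with doxorubicin, 36.6 with both agents and 43.5 with AMH alone, 8.28-fold (interval 6.90 to 10.0) above control and 3.92-fold (interval 3.32 to 4.65) above doxorubicin. It was below 20 CPM in both libraries without AMH, so it passed the level filter only through the libraries where it was high. Gstm1 stood at 637 CPM in control, 818 with doxorubicin, 1345 with both agents and 1644 with AMH alone, with folds of 2.58 (interval 2.53 to 2.63) and 1.64 (interval 1.61 to 1.68). Gstm2 read 435, 516, 825 and 959.7 CPM and Slc7a11 28.6, 26.9, 63.0 and 46.9 CPM, each higher in both libraries given AMH than in both without it. Gstt1 had a UMI in 12.8%, 21.8%, 40.2% and 42.4% of theca-like cells, and in 1.16%, 2.14%, 7.59% and 8.65% after thinning to 2000 UMIs, which left out 5 to 32 cells per library. In erythroid-like cells the unthinned share was 1.69% to 4.88%. The 9 lower genes were the superoxide and peroxide enzymes Sod1, Sod2, Prdx3, Prdx6 and Gpx3, the mitochondrial thioredoxin Txn2, the transferases Mgst1 and Gsta4, and Gclm. Prdx3 stood at 218 CPM in control, 223 with doxorubicin, 103 with both agents and 97.9 with AMH alone, 0.450 (interval 0.426 to 0.475) of control and 0.463 (interval 0.437 to 0.490) of doxorubicin. Mgst1, a microsomal transferase, read 545, 599.8, 261 and 282 CPM, and Gsta4, which conjugates lipid aldehydes, 76.2, 95.5, 29.8 and 31.5 CPM. Sod1 read 503, 496, 308 and 298, Sod2 (mitochondrial) 148, 156, 105 and 92.7, Prdx6 164, 175, 102 and 103, Txn2 76.4, 78.1, 52.3 and 50.9, Gpx3 31.3, 35.9, 19.6 and 16.2 and Gclm 62.6, 65.5, 43.8 and 41.6 CPM. Gpx3 was below 20 CPM in both libraries given AMH and passed the level filter only through the libraries where it was high. In all 9 both libraries given AMH lay below both libraries without it. Mt1 read 1378, 1645, 2115 and 2192 CPM, past the fold in AMH against control (0.67) and not in the other comparison (0.36).

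The clusters that make up the theca-like class also differed between these libraries. A cluster led by Lhcgr, Prss35 and Dpp6 held 43, 33, 565 and 737 cells, and a cluster led by Cyp17a1, Cyp11a1 and Serpina5 held 687, 448, 66 and 63. Theca markers summed to 17886, 17231, 7281 and 6471 CPM, luteal markers to 4505, 4186, 996 and 900.4 and stroma markers to 759, 813, 1501 and 1361 CPM. The luteal list shares Cyp11a1 with the theca list, so these sums are not independent. The luteal marker Akr1c18 had no UMI in the control library of this class. Mitochondrial UMIs made up 8.37%, 8.22%, 5.81% and 6.16% of the class, the median depth was 20527, 24382, 13886 and 12460.5 UMIs per cell, and 9 of 16 dissociation stress genes were higher in AMH than in control. Ratios within the clusters of uneven size are not given here. In another cluster, led by Cyp17a1, Lhcgr and Enpep and of similar size in the libraries (107, 110, 108 and 102 cells), most ratios of the 13 genes were smaller than in the class. There 5 of 29 genes were past the fold in AMH against control (background 3.82% higher and 3.12% lower) and 3 in doxorubicin+AMH against doxorubicin (background 5.82% and 3.54%). In this cluster Gsta4 alone of the 13 was past the fold in its direction in both, at 61.0 CPM in control, 88.0 with doxorubicin, 49.4 with both agents and 37.1 with AMH alone (log2 -0.65 and -0.77). Gstm1 was at 425, 518, 567 and 913 CPM there, a ratio of 1.09 in the first and 0.13 in the second, and Gstm2 gave 1.22 and 0.25. Gstt1, below the level filter there, gave 0.39 and 0.58, and Slc7a11 0.14 and 1.69. Prdx3 was near even at 105, 135, 115 and 109 CPM, Mgst1 at 139.6, 196, 159.9 and 149 CPM, and Sod1 gave -0.03 and 0.08. Holding the mix of clusters fixed across the class gave 10 genes higher and 0 lower in AMH than in control, in place of 7 and 9 (background then 3.8% and 7.58%). All 9 lower calls were lost, that of Gsta4 included, at -0.13. Of the 10, 6 were among the 7 higher genes of the class as a whole, and Hmox1, Cat, Gpx1 and Mt2 were the others. In doxorubicin+AMH against doxorubicin it gave 4 higher and 3 lower in place of 4 and 11 (background then 2.29% and 6.76%). Of the 13 genes, Gstt1 alone stayed past the fold in both comparisons with the mix fixed, at 1.12 and 0.56. The fixed mix leans on clusters with as few as 33 and 63 cells in a library. Markers also differed between libraries within those clusters. Stroma markers summed to 2894, 2562, 1228 and 1150 CPM in the cluster led by Lhcgr, Prss35 and Dpp6. Theca markers summed to 19395, 18923, 15505 and 13187 CPM in the one led by Cyp17a1, Cyp11a1 and Serpina5. Their part in the fixed-mix values was not tested.

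**Figure D5:**
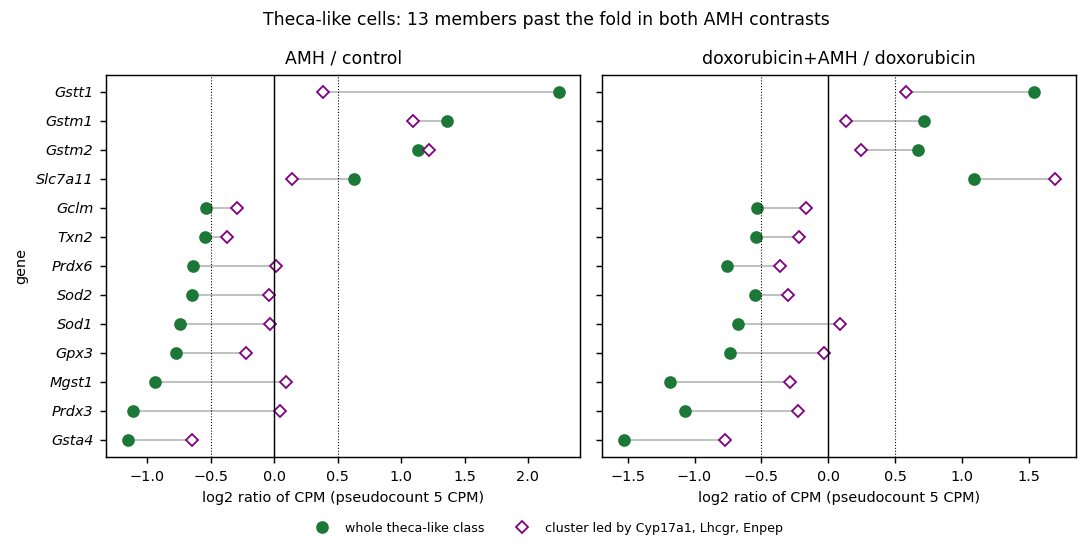
Log2 ratios of the 13 genes past the fold in both AMH comparisons, for the whole theca-like class and for the cluster led by Cyp17a1, Lhcgr and Enpep, joined by a line for each gene, with dotted lines at 0.5 and -0.5. In the cluster most ratios lie nearer 0, and Gsta4 alone stays below -0.5 in both comparisons; Gstt1 is below the level filter in the cluster.

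Other genes of these pathways were also past the fold in both theca-like AMH comparisons, beside a background of 7.61% higher and 10.7% lower in the first and 7.15% and 10.5% in the second. On a list of 28 further genes of the NRF2 system and NADPH supply, 24 were measured, with 4 higher and 7 lower in AMH than in control (median -0.08) and 3 higher and 9 lower in doxorubicin+AMH than in doxorubicin (median -0.20). Lower in both were Pgd at 86.9, 83.2, 32.4 and 35.9, Taldo1 at 153, 162, 86.5 and 83.9, Tkt at 181, 209, 123 and 126 and Idh1 at 278, 286, 132 and 137 CPM, enzymes of the pentose phosphate route and of isocitrate oxidation. Ephx1, a microsomal epoxide hydrolase, stood at 214, 238, 41.8 and 42.5 CPM and the NRF2 relative Nfe2l1 at 222, 211, 148 and 145 CPM, also lower in both. Higher in both were the small partner proteins of NRF2, Maff at 21.0, 25.3, 42.4 and 49.4 and Mafk at 19.6, 19.5, 30.0 and 32.0 CPM. Mafk, and Gstm7 and Pdk4 given below, were under 20 CPM in both libraries of their low side, so they passed the level filter only through the libraries where they were high. On a list of 38 further glutathione and thiol enzymes 20 were measured, with 1 higher and 6 lower, and then 2 higher and 6 lower. Slc3a2, the partner chain of Slc7a11, was lower at 209, 198, 122 and 111 CPM while Slc7a11 was higher. Mgst3 at 77.0, 72.0, 36.1 and 34.7 CPM, Gsta2 at 86.0, 93.6, 47.7 and 50.9 CPM, Gstm7 at 32.1, 35.8, 18.6 and 19.5 CPM, Glrx5 at 113, 126, 84.3 and 68.6 CPM and Msra, a methionine sulfoxide reductase, at 45.8, 39.2, 24.2 and 21.6 CPM passed the fold in both as well, and Selenop, a selenium carrier, was higher at 41.5, 42.4, 79.0 and 78.8 CPM. Among 10 glucocorticoid-responsive genes 7 were measured, with 3 higher and 1 lower, and then 4 higher and 2 lower. Cebpd at 41.9, 55.2, 199.8 and 165 CPM was higher in both. Klf9 read 142, 128, 231 and 203, Errfi1 78.2, 73.7, 111 and 128 and Pdk4 31.0, 27.3, 11.0 and 12.3 CPM. Of 10 metal-handling genes 3 were measured, with 0 past the fold in the first and 2 lower in the second. The stress list had 9 higher and 0 lower of 16, and then 5 higher and 0 lower. In both comparisons Atf3 (134, 149.6, 296 and 337 CPM), Ier3 (76.0, 78.9, 177 and 166 CPM), Nr4a1 (476, 464, 759 and 746 CPM), Zfp36 (202, 229.9, 375 and 322 CPM) and Socs3 (88.9, 113, 262 and 163 CPM) were past it.

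Most of these list differences were not seen in the theca-like cluster of steady size led by Cyp17a1, Lhcgr and Enpep. There 2 of 20 measured NRF2 and NADPH genes were higher and 0 lower in AMH than in control, beside 3.82% and 3.12% of all genes, and 3 were higher and 1 lower in doxorubicin+AMH than in doxorubicin, beside 5.82% and 3.54%. The small Maf genes Maff, at 20.4, 18.2, 27.8 and 32.0 CPM, and Mafk, at 19.4, 14.3, 23.5 and 31.0 CPM, were higher in both, and Mafk passed the level filter only through the libraries given AMH. Of 19 glutathione and thiol enzymes 1 was higher and 0 lower, and then 0 higher and 2 lower. The 1 higher was Gstm7, at 16.3, 30.3, 25.4 and 29.4 CPM, which was lower in AMH than in control over the whole class. Stress genes were past the fold there too, with 7 of 16 higher and 0 lower, and then 3 higher and 0 lower.

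Gstp1 was past the fold in AMH against control in each of the 4 classes where it was measured, theca-like cells included. This pi-class transferase stood at 22.1 CPM in control, 23.2 with doxorubicin, 27.7 with both agents and 35.2 with AMH alone in granulosa-like cells and 24.6, 26.1, 23.2 and 38.1 CPM in theca-like cells. It read 28.4, 28.3, 35.3 and 45.7 CPM in stroma-like cells and 32.9, 31.0, 39.4 and 53.2 CPM in mural cells. The AMH library was highest in all 4 classes, with log2 ratios to control of 0.57, 0.54, 0.60 and 0.62. It also lay above 0 in 16 of the 16 clusters where the gene was measured. Doxorubicin+AMH against doxorubicin gave 0.22, -0.14, 0.27 and 0.30, none past the fold. With the cluster mix held fixed, however, the theca-like ratio of this comparison was higher and past the fold, and over clusters it lay above 0 in 14 of 16 and past the fold in 2. Gstp1 shared 43.6% of the 50-base stretches near its ends with 2 other genes, so part of its counts may be theirs. In granulosa-like cells it was the 1 of 27 genes past the fold in AMH against control (0 lower, background 0.95% and 2.44%), and 0 were in doxorubicin+AMH against doxorubicin (background 1.28% and 3.1%). The medians were 0.04 and 0.00.

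Within granulosa-like cells a cluster led by Cntn4, Slc18a2 and Amh, given as an example and not shown to be the only one, had ratios as large as those of theca-like cells. It held 352, 307, 155 and 233 cells and was picked after its values were seen. Gpx3 stood at 45.2 CPM in control, 42.1 with doxorubicin, 175 with both agents and 233 with AMH alone there, with log2 ratios of 2.24 in AMH against control and 1.93 in doxorubicin+AMH against doxorubicin. Gsta4 went the other way, at 43.4 CPM in control, 58.5 with doxorubicin, 11.9 with both agents and 13.2 with AMH alone, with -1.41 and -1.91, and it passed the level filter only through the libraries without AMH. For both genes the libraries given AMH lay apart from those without it. In this cluster 2 of 27 genes were higher and 1 lower in each comparison (background 5.54% and 7.91%, then 4.51% and 7.08%). Over clusters of all classes, Gsta4 was below 0 in AMH against control in 7 of the 7 where it was measured, and past the fold in 4, and below 0 in 6 of 7 in doxorubicin+AMH against doxorubicin. Gpx3 had no shared direction, with 6 of 20 clusters above 0 in the first comparison and 10 of 20 in the second.

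Sod3 was lower in the libraries given AMH in stroma-like and mural cells. It stood at 35.0 CPM in control, 33.1 with doxorubicin, 20.6 with both agents and 20.7 with AMH alone in stroma-like cells and at 37.5 CPM in control, 51.2 with doxorubicin, 30.3 with both agents and 22.0 with AMH alone in mural cells. Both libraries given AMH lay below both without it in each class, with log2 ratios of -0.64 and -0.57 in stroma-like cells and -0.65 and -0.67 in mural cells. In theca-like cells Sod3 was instead highest in AMH, at 40.5, 44.0, 56.6 and 63.0 CPM. The stroma-like class had 1 of 28 genes higher and 3 lower in AMH than in control (background 0.45% and 1.2%), and 0 and 2 in doxorubicin+AMH against doxorubicin (background 0.315% and 1.31%). The other lower genes in the first were Mt1 at 299, 293, 229 and 203 CPM (-0.55) and Mt2 at 27.2, 22.0, 20.2 and 15.5 CPM (-0.65). The Mt1 call was lost under the marker gate, where its ratio was -0.20, and with cells weighted equally 1 gene was lower in place of 3. In mural cells 1 of 27 was higher and 1 lower, and then 0 and 1 (background 0.485% and 1.58%, then 0.41% and 1.38%). The most counted members of mural cells, Gstm1 at 403, 418, 389.9 and 376, Prdx1 at 389, 408, 370.2 and 398 and Prdx2 at 328, 376, 393 and 367 CPM, were within the fold throughout. The medians over the mural genes were -0.03 and -0.05, and in stroma-like cells 0.04 and -0.07.

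Macrophage-like cells had 2 of 29 genes higher and 0 lower in AMH than in control (background 5.66% and 5.9%), and 3 higher and 5 lower in doxorubicin+AMH than in doxorubicin (background 8.68% and 13.5%), shares near the background. Gstm2 was the gene past the fold in both, at 19.3, 20.3, 33.1 and 36.4 CPM. Its second ratio of 0.59 turned to -0.58 when each cell was weighted equally and fell to 0.022 without the cells with neutrophil RNA. The metallothioneins, lowest in doxorubicin, were higher in doxorubicin+AMH than in doxorubicin, by 0.75 for Mt1 and 1.15 for Mt2. Without the cells with neutrophil RNA these became 0.41 and 0.01. In AMH against control Gclc, the other higher gene, then went from 0.55 to 0.15, and the count was 5 higher and 1 lower of 28 in place of 2 and 0 (background then 10.1% and 10.6%). In doxorubicin+AMH against doxorubicin the count was 2 higher and 7 lower in place of 3 and 5 (background then 14.3% and 18.2%). Of these, 0 of the higher and 3 of the lower were among the calls of the whole class.

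Blood endothelial-like cells were few, 60 to 168 per library, and 23 genes were measured. In AMH against control 4 were higher and 1 lower (background 5.01% and 9.15%), and in doxorubicin+AMH against AMH 1 was higher and 5 lower (background 6.91% and 5.71%). These 6 became 0 under the marker gate, 2 with doublets left in and 12 with no level filter. The other comparisons had 0 past the fold for doxorubicin against control (background 1.22% and 2.22%) and 0 higher and 2 lower for doxorubicin+AMH against doxorubicin (background 4.76% and 5.49%). Mt1 stood at 62.5 CPM in control, 47.6 with doxorubicin, 49.7 with both agents and 135 with AMH alone and Gstm1 at 66.6, 79.3, 56.7 and 141 CPM, both highest in AMH. In that library the class also held more RNA of other classes. Stroma markers summed to 234, 141, 238 and 1164 CPM, mural markers to 695, 693, 997 and 1777, macrophage markers to 29.1, 24.8, 28.8 and 133 and erythroid markers to 16.4, 18.0, 19.9 and 324 CPM. The median depth was 10072, 12216.5, 9881.5 and 18472 UMIs per cell. The Mt1 ratio of -1.36 in doxorubicin+AMH against AMH turned to 0.30 with doublets left in and to 0.31 under a marker gate. Keap1 at 41.4, 40.3, 17.9 and 29.6 CPM and Gsr at 42.9, 50.1, 24.9 and 34.6 CPM were lowest in doxorubicin+AMH, from sums of few UMIs. The most counted members were Prdx1 at 436, 454, 387 and 349.8, Txn1 at 439.7, 449, 379.7 and 336 and Gpx1 at 346, 321, 337 and 348 CPM.

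In granulosa-like cells 2 of 20 measured genes of the NRF2 and NADPH list, Me1 and Ugdh, were higher in AMH than in control and 0 lower (background 0.95% and 2.44%), and 1 of 17 glutathione and thiol enzymes, Gpx7, was higher in doxorubicin+AMH than in doxorubicin and 0 lower (background 1.28% and 3.1%). In mural cells 1 of 19 NRF2 and NADPH genes, Bach2, was lower in doxorubicin than in control and 0 higher (background 0.394% and 1.74%). In granulosa-like, stroma-like and mural cells 0 genes of these 2 lists were past the fold in the comparisons not named here. In the stroma-like cluster led by Dpt, Clec3b and C3, 5 of 20 NRF2 and NADPH genes were higher in doxorubicin than in control and 0 lower (median 0.23), beside 7% and 11.2% of all genes measured in it, namely Maff, Tkt, Ugdh, Ephx1 and Aox1. The glutathione and thiol list did not lean 1 way there, with 4 of 18 higher and 3 lower (median -0.07). Of the NRF2 and NADPH genes, Ephx1, at 30.6, 45.5, 37.8 and 23.4 CPM, was past the fold in both doxorubicin comparisons, and Maff, higher in the first, was lower past the fold in doxorubicin+AMH against AMH. In the same cluster the zinc importer Slc39a10 read 24.3, 37.4, 49.6 and 27.7 CPM, Msrb1, a methionine sulfoxide reductase, 28.1, 48.0, 41.1 and 25.8 CPM, and the glucocorticoid-responsive Fkbp5 and Zbtb16 29.5, 13.9, 22.2 and 43.9 and 68.2, 33.7, 41.7 and 79.9 CPM, each past the fold in both doxorubicin comparisons. In mural cells Zbtb16 at 52.1, 19.7, 13.9 and 40.2 CPM and Errfi1 at 249, 164, 148 and 227 CPM were lower in both. In macrophage-like cells 2 of 22 NRF2 and NADPH genes were higher and 2 lower in doxorubicin than in control, and 3 of 16 glutathione and thiol enzymes, Glrx, Glrx3 and Msrb1, were higher and 0 lower (background 7.28% and 8.18%). In doxorubicin+AMH against AMH 4 of 7 glucocorticoid-responsive genes and 5 of 15 stress genes were lower and 0 of either higher, with medians of -0.61 and -0.39. Of 16 glutathione and thiol enzymes 1 was higher and 3 lower (median 0.07), of 22 NRF2 and NADPH genes 1 was higher and 1 lower, and of 6 metal-handling genes 1 was higher and 2 lower (background 5.63% and 10.3%). Maff at 30.8, 17.6, 11.4 and 24.7 CPM and Klf9 at 51.4, 18.9, 18.9 and 33.3 CPM passed the fold in both doxorubicin comparisons in macrophage-like cells. There Bach2 (74.5, 74.3, 34.1 and 47.5 CPM), the metal-responsive factor Mtf1 (16.1, 17.6, 27.5 and 28.4 CPM), the iron exporter Slc40a1 (221, 305, 144 and 74.0 CPM) and Sgk1 (76.4, 68.9, 117 and 113 CPM) passed it in both AMH comparisons. Maff, Klf9 and Mtf1 in macrophage-like cells and Zbtb16 in mural cells were under 20 CPM in both libraries of their low side, so they passed the level filter only through the libraries where they were high. In blood endothelial-like cells Cebpd at 119.8, 126, 193 and 214 CPM and Egr1 at 547, 432, 782 and 856 CPM passed the fold in both AMH comparisons.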

How the data were processed

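Single-cell UMI counts from 4 mouse ovary libraries, 1 per group, were analysed. The counts per gene and cell barcode were deposited by the authors as matrices, not normalized, and made with Cell Ranger 7.0.0 per the file headers. The build mm10, R 4.2.0 and Seurat 4.1.0 are named in the submitters' processing notes. The annotation, and the handling of intronic reads, are not given in the sources used here. The members and the gene lists were chosen with earlier results of these data known, and the share of markers needed to name a cluster (50%) was set after the clusters were seen.

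Cells below 1000 UMIs or above 20% mitochondrial UMIs were dropped. Scrublet (scanpy 1.11.5) scored doublets, and the top scores, 0.8% of a library for every 1000 of its cells, were taken out: 632 from control, 366 from doxorubicin, 437 from doxorubicin+AMH, 648 from AMH. The automatic threshold marked 349, 6, 0 and 0 and was not used. Total UMIs per deposited library were 178279122, 143127593, 138647495 and 169170501, with medians of 12593, 13575, 10995.5 and 9834.5 per cell. All libraries were clustered together, with no batch correction, using 2000 variable genes and leaving out the members, the further lists and mitochondrial genes, with 30 components (scikit-learn 1.9.0), 20 neighbours and Leiden resolution 1 (leidenalg 0.10.2, igraph 0.11.9), under Python 3.11.15. A cluster was named from at least 3 markers and 50% of a fixed marker list that exceeded the median cluster by 1 log2 unit and were seen in 10% of its cells.

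UMIs were summed per class and library and given as CPM with exact Poisson intervals (95%), and folds with exact binomial intervals (scipy 1.17.1, numpy 2.4.6). Shares of cells were read unthinned and after thinning to 2000 UMIs. Genes given in every library were those past the fold in the same direction in both comparisons of a pair, the 3 most counted per class, and 11 NRF2-related members in granulosa-like, theca-like and stroma-like cells where measured. The stroma-like cluster led by Dpt, the granulosa-like cluster led by Cntn4, the theca-like cluster led by Cyp17a1, Lhcgr and Enpep, and the split by neutrophil markers were chosen after values were seen. The ratio scripts were tested on simulated data. In GENCODE M21, 5 members overlap another gene on the same strand, 11 overlap an antisense gene and 12 share 50-base stretches near a transcript end with another gene, so their counts are less certain. Alternatives covered scaling, cell weights, the mitochondrial and UMI limits, the pseudocount, the level filter, the cluster mix, doublets and a marker gate per cell, besides 6 chosen after the data were seen. No sample column was left unmapped. Clusters outside the 6 classes, which held too few cells per library, were left out.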

Additional observations from a re-analysis of the deposited data

Results flagged for a closer look

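Some genes were past the fold in opposite directions in different cell classes or in paired comparisons. None of these differences was tested, because each group has 1 library.

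In macrophage-like cells Gclc had a log2 ratio of 0.59 in doxorubicin against control and -0.60 in doxorubicin+AMH against AMH. Read the other way, it was 0.55 in AMH against control and -0.64 in doxorubicin+AMH against doxorubicin, so Gclc was higher with either agent alone than with both or neither. Without the cells with neutrophil RNA the 2 higher calls were lost, at 0.19 in doxorubicin against control and 0.15 in AMH against control, while both lower ratios stayed past the fold, at -0.60 and -0.63. In doxorubicin+AMH against doxorubicin, Slc7a11 was 1.09 in theca-like cells and -1.39 in macrophage-like cells, and Gstm1 was 0.71 and -0.72 in the same classes. In AMH against control, Sod3 was 0.58 in theca-like cells, -0.64 in stroma-like cells and -0.65 in mural cells. Mgst1 was 0.57 in blood endothelial-like cells and -0.94 in theca-like cells, but the theca-like value was 0.052 with a fixed cluster mix and 0.091 in the cluster led by Cyp17a1, Lhcgr and Enpep, and the blood endothelial-like value 0.26 under the marker gate, so the opposite directions were not seen there. Mt1 was 0.67 in theca-like cells, 1.05 in blood endothelial-like cells and -0.55 in stroma-like cells, the last at -0.20 under the marker gate. The blood endothelial-like Mt1 value was 0.43 in the lowest of its alternatives, below the fold. The theca-like values come from libraries whose theca-like clusters differed in size. With a fixed cluster mix the theca-like Slc7a11 and Gstm1 ratios in doxorubicin+AMH against doxorubicin were 0.44 and 0.48, below the fold. In macrophage-like cells the doxorubicin+AMH against doxorubicin ratio of Gstm1 was -1.01 without the cells with neutrophil RNA, so it kept its direction. That of Slc7a11 was -1.87, but its direction cannot be read there. The cells taken out held 128 of its 133 UMIs in doxorubicin and 69 of 69 in doxorubicin+AMH.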

How the results depend on the processing

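No paired analysis was possible because each group has 1 library, and the number 1 that every library carries only names it. For the same reason no library could be left out. Over all classes and comparisons, 190 of 236 alternative counts past the fold, 225 of 236 alternative medians and 604 of 829 alternative ratios of single genes were classed as unchanged. Another 208 ratios were classed as moved without changing sign and 17 as turned. Unchanged did not always mean close. The macrophage-like Gstm2 ratio of doxorubicin+AMH against doxorubicin was so classed at 0.022 without the cells with neutrophil RNA, against 0.59 as reported. Rescaling moved the median of all genes by less than 0.1. The fixed cluster mix could not be computed for blood endothelial-like cells, which are 1 cluster. Where a count moved and no reason is named, the cause was not tested.

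With cells weighted equally, granulosa-like counts became 1 for doxorubicin against control (from 0) and 0 for doxorubicin+AMH against AMH (from 1), with medians of -0.087 for AMH against control and -0.083 for doxorubicin+AMH against doxorubicin. The stroma-like counts became 0 for doxorubicin against control and 2 for AMH against control, the blood endothelial-like count 5 for doxorubicin+AMH against doxorubicin, and the macrophage-like counts 10 for doxorubicin+AMH against AMH and 6 for AMH against control. Gstm2 turned to -0.58 in macrophage-like doxorubicin+AMH against doxorubicin.

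With no level filter more genes entered. Counts became 2 and 4 in stroma-like cells for doxorubicin against control and doxorubicin+AMH against doxorubicin, 2, 12, 9 and 5 in blood endothelial-like cells for doxorubicin against control, doxorubicin+AMH against AMH, AMH against control and then doxorubicin+AMH against doxorubicin, and 4 in macrophage-like cells for AMH against control. The granulosa-like median for doxorubicin+AMH against AMH became 0.042. Median-of-ratios scaling gave medians of 0.10 and 0.041 in granulosa-like cells for both AMH comparisons, -0.092 in theca-like cells for doxorubicin+AMH against doxorubicin and 0.11 in stroma-like cells for AMH against control. A pseudocount of 1 CPM gave 2 theca-like genes for doxorubicin against control.

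With a fixed cluster mix, theca-like counts became 2 for doxorubicin against control, 10 for AMH against control (10 higher and 0 lower, from 7 and 9) and 7 for doxorubicin+AMH against doxorubicin (4 and 3, from 4 and 11), with medians of 0.22, 0.13 and 0.032. Granulosa-like cells had 2 for AMH against control, and macrophage-like cells 7 for doxorubicin+AMH against AMH and 4 for AMH against control. Theca-like ratios turned for Slc7a11 (-0.046), Prdx6 (0.058) and Mgst1 (0.052) in AMH against control, and for Hmox1 (0.058) and Sod1 (0.0062) in doxorubicin+AMH against doxorubicin. Macrophage-like Gstm2 turned to -0.32 in the latter comparison. In the theca-like cluster led by Cyp17a1, Lhcgr and Enpep alone, counts were 2, 4, 5 and 3 in the order doxorubicin against control, doxorubicin+AMH against AMH, AMH against control and lastly doxorubicin+AMH against doxorubicin, the first with a median of 0.26. There Prdx3 (0.049), Prdx6 (0.017) and Mgst1 (0.091) turned in AMH against control, and Hmox1 (0.23) and Sod1 (0.085) in doxorubicin+AMH against doxorubicin.

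With doublets left in, counts became 0 in granulosa-like doxorubicin+AMH against AMH, 1 in mural AMH against control, 2 in mural doxorubicin+AMH against doxorubicin, and 2, 2, 3 and 5 in blood endothelial-like cells in the order of comparisons used above, where Mt1 turned to 0.30 in doxorubicin+AMH against AMH. Under the marker gate, counts became 1 in granulosa-like doxorubicin against control, 1 in stroma-like doxorubicin+AMH against doxorubicin, 1 in mural doxorubicin+AMH against AMH, and 2, 0, 3 and 5 in blood endothelial-like cells, with Mt1 at 0.31. Macrophage-like counts under the gate became 8, 4 and 4 for doxorubicin+AMH against AMH, AMH against control and finally doxorubicin+AMH against doxorubicin, with Slc7a11 at -0.98 in the first. Without the Dpt cluster the stroma-like counts became 0 for doxorubicin against control and 1 for doxorubicin+AMH against doxorubicin. Without cells with neutrophil RNA the macrophage-like counts became 7 for doxorubicin+AMH against AMH and 6 for AMH against control. Slc7a11 turned to -0.69 in doxorubicin against control and -1.80 in doxorubicin+AMH against AMH, from few UMIs and below the level filter. Classes of under 200 cells per library, blood endothelial-like and macrophage-like, gave the widest counting intervals.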
